A study of Mus musculus with 7 samples.

Results

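Cyp11b2, Hsd3b6, Cacna1h and Dab2 are genes that mark or equip the aldosterone-producing cells of the adrenal zona glomerulosa. They were taken by symbol as 4 of the 35976 genes in a table of RNA sequencing counts from mouse adrenal glands, and all 4 were abundant enough to test, as were 16720 genes in all with a mean normalized count of 10 or more. The mice were C57BL/6J, an inbred laboratory strain, with no treatment or transgene named in the labels. Each of the 7 libraries came from total RNA of 1 pool of glands, which leaves every group without a replicate. The pools were E18.5 (embryos shortly before birth) with 40 glands and sex not determined, postnatal day 1 (P1) male with 16 glands and female with 22, 2 weeks after birth with 6 glands of each sex, and 12 weeks with 4 glands of each sex.

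The adrenal cortex is layered, and the zona glomerulosa is the thin layer under the capsule. Its cells make aldosterone, the hormone that makes the kidney retain sodium, and they do so when angiotensin II or extracellular potassium depolarizes them and calcium enters. Aldosterone synthesis shares its first steps with the synthesis of corticosterone in the wider zona fasciculata, and it parts from it at the last enzyme. A whole gland contains little zona glomerulosa beside the other cortical layers and the medulla, so these libraries measure the layer diluted in the rest. In bulk RNA, fewer cells of a type and less RNA per cell cannot be told apart, and this holds for every level given here.

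Each library held between 15184210 and 23551289 reads in genes. The defining genes of the steroid-making cortex were abundant in all 7 libraries, with 8 shared steroid genes (Star, Cyp11a1, Fdx1, Fdxr, Hsd3b1, Cyp21a1, Cyp11b1 and Por) summing to between 248407.9 normalized counts in the P1 female and 1118813.2 in the 12-week female. The library labelled P1 female held reads of 4 Y-linked genes, with a median of 21.0% relative to the P1 male (15.6 to 28.1%), against 0.0609% and 0.0132% in the females of 2 and 12 weeks, so the age and sex differences of the 4 genes that rest on it are also given without it, and calls in the lists are counted without it. Reads of skeletal muscle, kidney and liver genes were highest before 2 weeks, and those of adipocyte genes from 2 weeks on. Summed over 6 skeletal muscle genes they were 37863.6 to 130336.7 normalized counts at E18.5 and P1 and 39.6 to 3930.3 later, and summed over 7 kidney genes 444.5 to 4075.8 and then 18.1 to 46.8. Over 4 liver genes the sums were 237468.0 to 345669.1 and then 392.9 to 31609.3, and over 5 adipocyte genes 2881.1 to 3002.4 and then 25375.6 to 45114.4. The part of these tissues in the differences between ages was not tested.

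Both enzyme genes have a close copy next to them that the rest of the cortex uses at far higher levels, which bears on how their reads could be counted. Cyp11b2 lies on the minus strand at chr15:74851010-74856318 (GRCm38, GENCODE M21, 9 exons), 9366 bases from Cyp11b1 at chr15:74834125-74841643. Hsd3b6 lies on the minus strand at chr3:98805504-98814443 (4 exons), 37750 bases from Hsd3b1 at chr3:98852194-98859794. The coding sequences of Cyp11b2 and Cyp11b1 were 87.1% identical, with 194 differing bases, and those of Hsd3b6 and Hsd3b1 were 90.0% identical, with 112 differing bases. Reads can be told apart where the copies differ. The following 60-base windows of the coding strand are shown because each lies where its pair differs most, with the bases that differ within the pair in capitals. The Cyp11b windows are coding bases 523 to 582 in exon 3 (chr15:74853815-74853874 and chr15:74839246-74839305), with 24 differences. The Hsd3b windows are coding bases 94 to 153, which run from exon 2 into exon 3 across an intron (between chr3:98807922-98810953 and chr3:98856151-98857871), with 15 differences.
Cyp11b2: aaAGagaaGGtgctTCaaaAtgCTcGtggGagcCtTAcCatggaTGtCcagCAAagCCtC
Cyp11b1: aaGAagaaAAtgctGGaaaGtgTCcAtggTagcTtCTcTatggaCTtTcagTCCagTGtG
Hsd3b6: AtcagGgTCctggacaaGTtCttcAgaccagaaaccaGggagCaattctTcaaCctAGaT
Hsd3b1: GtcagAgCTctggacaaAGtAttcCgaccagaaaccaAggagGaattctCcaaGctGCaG

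The copies also differ outside these windows, but in some stretches they are the same. The longest identical stretch of the Cyp11b pair was 244 coding bases, 26 to 269, in exons 1 and 2, and that of the Hsd3b pair was 72 coding bases, 250 to 321, in exons 3 and 4. The latter is shown to give the scale of what a short read must resolve, with no base in capitals since none differs.
Hsd3b6 and Hsd3b1: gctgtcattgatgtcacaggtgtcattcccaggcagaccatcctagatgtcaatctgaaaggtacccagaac
Of the 50-base words in the Cyp11b2 transcript, 19.1% (301 of 1576) also occurred in another gene, and that gene was Cyp11b1 alone. For Hsd3b6 the share was 16.0% (281 of 1753), found in Hsd3b1 to Hsd3b5, in genes with Gm symbols and in Mapkap1. For Dab2 it was 0 of 3744 and for Cacna1h 1 of 8171. How reads from such stretches were assigned is not given in the sources used here, so the levels of Cyp11b2 and Hsd3b6 are uncertain. The shares above do not bound that uncertainty, because the copies had far more reads. The P1 male had 97326 reads of Cyp11b1 against 1000 of Cyp11b2, and the P1 female 75049 of Hsd3b1 against 107 of Hsd3b6. Reads of a copy assigned to Cyp11b2 or Hsd3b6 could make up part of either count, and that part was not tested. Dab2 lies on the plus strand at chr15:6299788-6440712 and Cacna1h on the minus strand at chr17:25374285-25433783. Dab2 overlaps the antisense gene Gm16311, listed at 0 in every library, and Cacna1h overlaps the end of Tpsg1, which reached 1.64 normalized counts at most.

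Between P1 and 2 weeks after birth, the 2 steroid enzyme genes Cyp11b2 and Hsd3b6 rose, 2.86-fold and 9.69-fold. The calcium channel gene Cacna1h and the adaptor gene Dab2 did not pass the test over the same interval. Between 2 and 12 weeks 0 of the 4 passed, where 5.4% of all tested genes were called higher and 9.89% lower. Of the 4, only Hsd3b6 was higher at 12 weeks than at P1 by the test. Levels are normalized counts, the reads of a gene divided by a size factor for its library. Ages were compared in 1 limma fit over the 6 postnatal libraries with sex as a block and 2 residual degrees of freedom, and a gene was called where the Benjamini-Hochberg adjusted p was under 0.05 over all genes tested. Differences were taken between values of log2(normalized count + 1), so changes of genes with low counts are understated. The p-values rest on how far the pools depart from a fit in which age and sex add up. With 1 pool per age and sex, a sex difference that changes with age cannot be told apart from spread between pools. That spread may be technical.

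**Figure D1:**
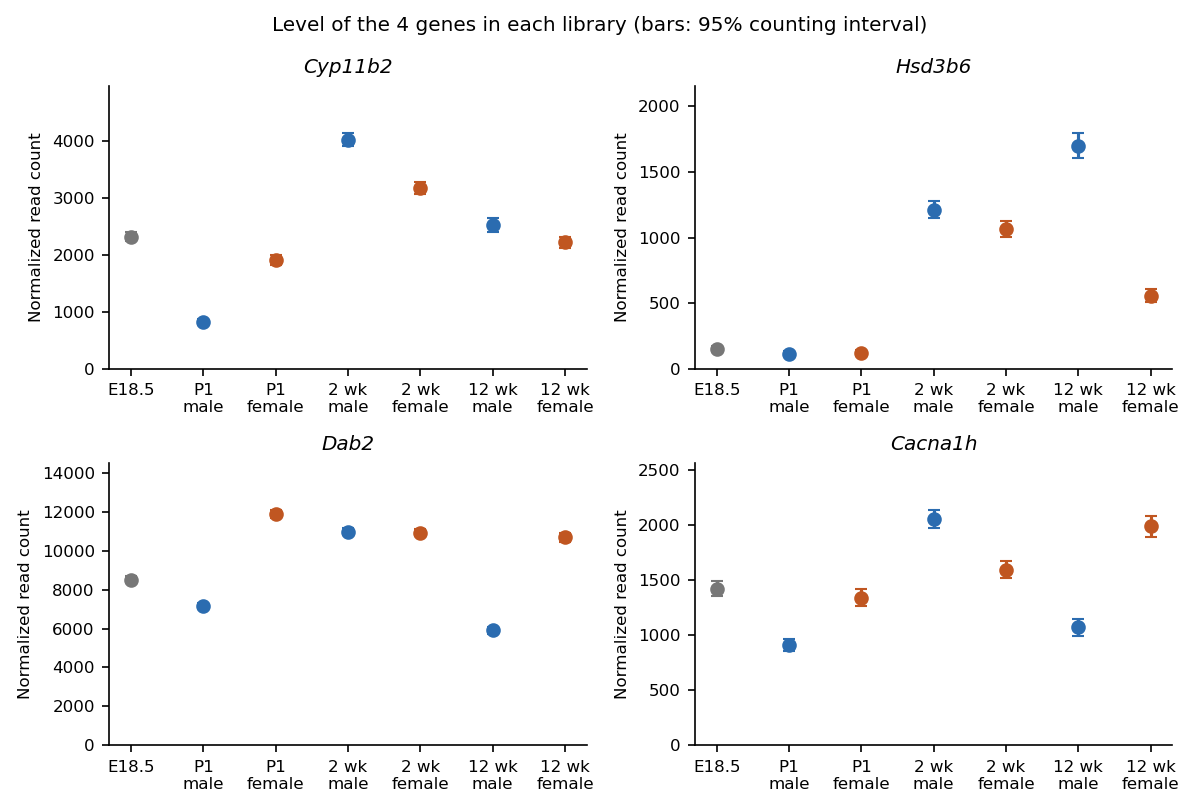
Normalized read counts (y axis, from 0, scaled separately in each panel) of Cyp11b2, Hsd3b6, Dab2 and Cacna1h in the 7 libraries (x axis), grey for E18.5, blue for males and orange for females, with bars for the 95% Poisson counting interval. Hsd3b6 lies between 114.6 and 147.9 in the 3 libraries up to P1 and between 555.5 and 1698.7 in the later 4, while Dab2 spans only from 5908.5 to 11910.1.

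Cyp11b2 encodes aldosterone synthase, the mitochondrial enzyme that carries out the last steps from deoxycorticosterone to aldosterone and that only zona glomerulosa cells of the normal cortex make in quantity. Its level was 2323.2 normalized counts at E18.5, 818.3 in the P1 male and 1912.9 in the P1 female. It was 4025.3 and 3176.0 in the male and female of 2 weeks, and 2525.0 and 2218.6 in those of 12 weeks. The highest library was 4.92 times the lowest. Both 2-week libraries stood above all others, the P1 male stood alone below them, and the groups of P1 and 2 weeks did not overlap. Ordered by level, each library differed from the next beyond counting error except E18.5 and the 12-week female, with a ratio of 1.05 (95% interval 0.988 to 1.11).

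From P1 to 2 weeks Cyp11b2 rose by 1.51 ± 0.36 (SE) on the log2 scale, with a limma adjusted p of 0.0365. It was higher in both sexes. At this interval 5.89% of all tested genes were called higher and 10.5% lower. From 2 to 12 weeks the difference was -0.60 ± 0.36 (limma adjusted p = 0.307), and from P1 to 12 weeks it was 0.92 ± 0.36 (limma adjusted p = 0.0845). The P1 to 2 week call rested on single pools. The difference was 0.77 without the P1 male (limma adjusted p = 0.115), 2.26 without the P1 female (0.05, just over the threshold), 1.08 without the 2-week male (0.299) and 1.94 without the 2-week female (0.0782). In the P1 to 12 week comparison the gene passed without the P1 female (1.66, limma adjusted p = 0.0179) and without the 12-week female (1.23, 0.00912), while the difference was 0.17 without the P1 male (0.449).

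Cyp11b1, the copy next to Cyp11b2, encodes the 11beta-hydroxylase that makes corticosterone in the zona fasciculata. In RPKM over merged exons, a level scaled to gene length and library size, Cyp11b2 ranged from 26.1 through a median of 73.2 to 132, and Cyp11b1 from 619 through 1270 to 2170. As a share of the reads of the pair, Cyp11b2 made up 1.97% at E18.5 (exact 95% binomial interval 1.9 to 2.05%), 1.02% in the P1 male (0.955 to 1.08%) and 4.57% in the P1 female (4.36 to 4.79%). The share was 7.46% in the 2-week male (7.25 to 7.67%) and 5.94% in the 2-week female (5.76 to 6.13%), and then 2.88% (2.75 to 3.02%) and 1.46% (1.39 to 1.52%) in the male and female of 12 weeks. The 2-week pair was thus the highest by this measure too, but the other libraries stood in another order than by the level of Cyp11b2 alone. Cyp11b1 itself was lowest in the P1 female, at 39931.4 normalized counts, and highest in the 12-week female, at 150103. From P1 to 2 weeks its difference was -0.17 ± 0.42 (limma adjusted p = 0.819). All such intervals cover counting error only, because each group is 1 library. They may be too narrow even for that, because reads with no molecular identifier may be copies of 1 molecule.

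Hsd3b6 encodes a 3beta-hydroxysteroid dehydrogenase, which turns pregnenolone into progesterone. The mouse uses this isoform in the zona glomerulosa, beside the Hsd3b1 isoform of the cortex at large. Its level was 147.9 normalized counts at E18.5, 114.6 in the P1 male and 118.1 in the P1 female. It was 1213.4 and 1062.2 in the male and female of 2 weeks, and 1698.7 and 555.5 in those of 12 weeks. Among the 3 libraries up to P1, neighbours in the order of levels did not differ beyond counting error, and every library from 2 weeks on stood above all 3. The highest library was 14.8 times the lowest, the widest range of the 4 genes.

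From P1 to 2 weeks Hsd3b6 rose by 3.28 ± 0.38 on the log2 scale (limma adjusted p = 0.00471), in both sexes. From P1 to 12 weeks, a comparison that shares the P1 libraries, it rose by 3.05 ± 0.38, or 8.29-fold (limma adjusted p = 0.00165). In that comparison 17.6% of all tested genes were called higher and 23.5% lower. The P1 to 12 week call held in 14 of 14 alternatives, with a highest adjusted p of 0.0428, and the difference was 3.52 without the P1 female (limma adjusted p = 0.0282). The P1 to 2 week call held in 10 of 14. Leaving out the P1 male gave 2.80 (limma adjusted p = 0.103), the P1 female 3.75 (0.0666) and the 2-week male 3.57 (0.0508). From 2 to 12 weeks the difference was -0.22 ± 0.38 (limma adjusted p = 0.731), and its direction rested on single pools. It was -0.99 without the 12-week male (limma adjusted p = 0.014), 0.54 without the 12-week female (0.163) and 0.07 without the 2-week female (0.959).

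The share of Hsd3b6 in the reads of Hsd3b6 and Hsd3b1 fell into 2 ranges that did not follow age alone. It was 0.16% at E18.5 (exact 95% binomial interval 0.137 to 0.185%), 0.166% in the P1 male (0.139 to 0.196%), 0.142% in the P1 female (0.117 to 0.172%) and 0.156% in the 12-week female (0.143 to 0.171%). These 4 intervals overlap, although the 12-week female had 555.5 normalized counts of Hsd3b6 against 114.6 to 147.9 in the other 3. The share was 0.66% in the 2-week male (0.625 to 0.696%), 0.574% in the 2-week female (0.542 to 0.608%) and 0.746% in the 12-week male (0.705 to 0.789%). In the 12-week female Hsd3b1 was at its highest, 355249 normalized counts, against 225943 in the 12-week male and 68985.7 to 92484 up to P1. In RPKM over merged exons Hsd3b6 ranged from 3.21 to 44.4 and Hsd3b1 from 1930 to 8770. At shares this low, reads of Hsd3b1 assigned to its copy could make up part of the Hsd3b6 count, and that part was not tested.

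**Figure D2:**
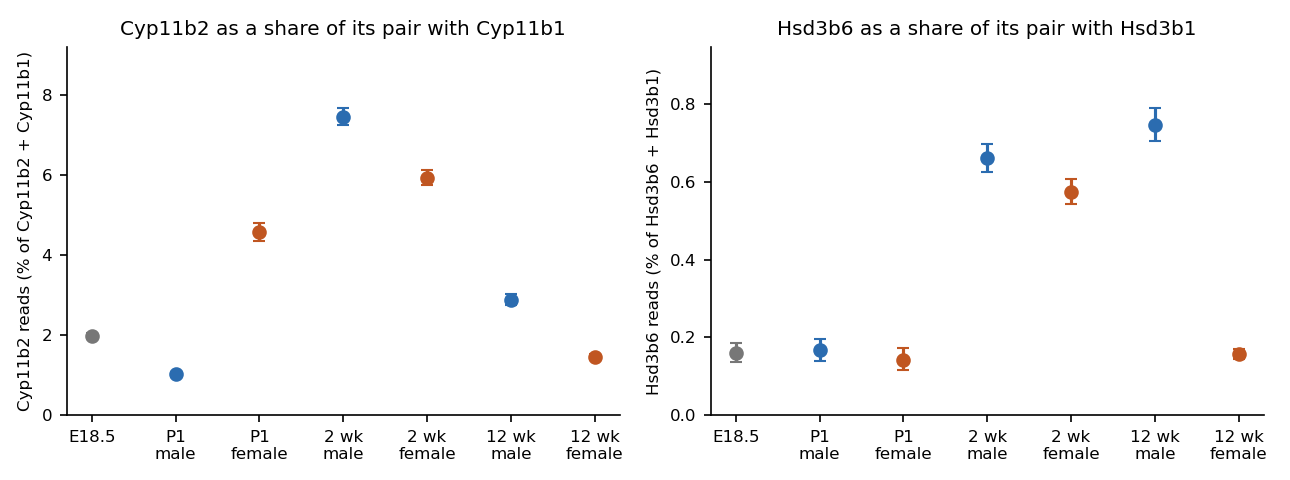
Share of Cyp11b2 in the reads of Cyp11b2 and Cyp11b1 (left, percent) and of Hsd3b6 in the reads of Hsd3b6 and Hsd3b1 (right, percent) in the 7 libraries, with exact 95% binomial intervals. Cyp11b2 peaks in the 2-week libraries at 5.94 and 7.46%, while Hsd3b6 lies near 0.16% in E18.5, both P1 libraries and the 12-week female and at 0.574 to 0.746% in the other 3.

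Cacna1h encodes the pore of Cav3.2, a T-type calcium channel that opens at small depolarizations and lets calcium into zona glomerulosa cells. It is also found in neurons and other excitable cells. The summed level of 8 genes of chromaffin cells, in the medulla, was 42040.3 at E18.5 and 48002.9 and 93290.7 at P1, male first. It was 125651.9 and 107829.3 at 2 weeks, and 83618.7 and 99848.5 at 12 weeks. What these cells added to the Cacna1h level was not tested. The level of Cacna1h was 1419.9 normalized counts at E18.5, and 904.2 and 1337.8 in the P1 male and female. It was 2052.2 and 1593.3 in the male and female of 2 weeks, and 1068.2 and 1984.4 in those of 12 weeks. The 2-week male and the 12-week female were the highest libraries and did not differ beyond counting error, nor did E18.5 and the P1 female. Both 2-week libraries stood above both P1 libraries, while the 12-week libraries lay on either side of the P1 female. From P1 to 2 weeks the difference was 0.72 ± 0.29 (limma adjusted p = 0.145). From 2 to 12 weeks it was -0.31 ± 0.29 (0.502), and from P1 to 12 weeks 0.40 ± 0.29 (0.298), by the same fit. The P1 to 2 week difference passed without the 12-week male (limma adjusted p = 0.0142) or the 12-week female (0.0147), with the difference itself at 0.72 in both. It was 0.17 without the 2-week male (limma adjusted p = 0.781), 1.26 without the 2-week female (0.0543) and 0.87 without the P1 female (0.329). The P1 to 12 week difference passed without the 12-week male (0.80, limma adjusted p = 0.0265), and was 0.01 without the 12-week female (0.986) and 0.56 without the P1 female (0.417). The 2 to 12 week difference turned to 0.23 without the 2-week male (limma adjusted p = 0.709) and to 0.08 without the 12-week male (0.878).

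Dab2 encodes a clathrin adaptor that carries cell surface receptors into the cell, and in rodent adrenals it marks the zona glomerulosa. Macrophages, endothelial cells and the proximal tubule of the kidney make it as well. Its level was 8522.1 normalized counts at E18.5, 7159.0 and 11910.1 in the P1 male and female, 10999.5 and 10943.1 in the male and female of 2 weeks, and 5908.5 and 10702.8 in those of 12 weeks. The highest library was 2.02 times the lowest, the narrowest range of the 4 genes. The P1 female was highest, and the 2-week libraries and the 12-week female followed in an order that did not go beyond counting error between neighbours. The P1 groups overlapped those of 2 and 12 weeks. Differences were 0.25 ± 0.23 from P1 to 2 weeks (limma adjusted p = 0.509), -0.46 ± 0.23 from 2 to 12 weeks (0.226) and -0.22 ± 0.23 from P1 to 12 weeks (0.493). The first was 0.40 without the P1 female (limma adjusted p = 0.525), 0.65 without the 2-week female (0.233) and turned to -0.15 without the 2-week male (0.803). The last was -0.06 without the P1 female (limma adjusted p = 0.909) and turned to 0.03 without the 12-week male (0.94).

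Summed levels of genes of the other cells that make Dab2 are given beside it. Summed over 7 macrophage genes, the level was 6728.3 at E18.5, 8814.4 and 9870.3 at P1, 3762.0 and 4996.9 at 2 weeks, and 10488.9 and 9678.9 at 12 weeks, male first. Summed over the 7 kidney genes it was 4075.8 in the P1 male, 928.3 in the P1 female, and 32.9 and 46.8 at 2 weeks. The sum of 4 endothelial genes lay between 13138.7 and 16506.1 in all 7 libraries. What these cells added to the Dab2 level was not tested.

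**Figure D3:**
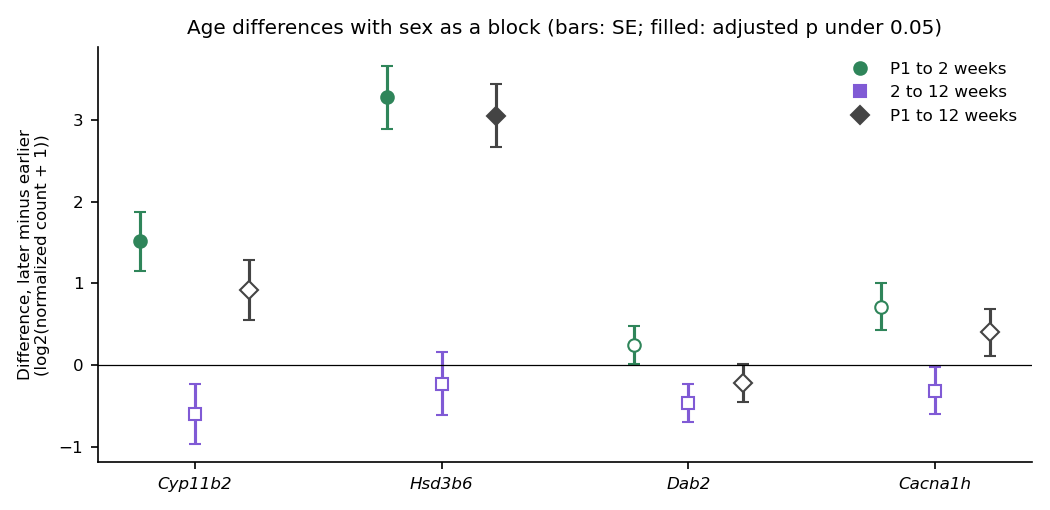
Differences between ages for the 4 genes (y axis, log2(normalized count + 1), later minus earlier) from the limma fit over 6 postnatal libraries with sex as a block, as points with SE bars, filled where the adjusted p was under 0.05. Filled points are Cyp11b2 from P1 to 2 weeks (1.51) and Hsd3b6 from P1 to 2 weeks (3.28) and from P1 to 12 weeks (3.05), and all differences from 2 to 12 weeks lie between -0.60 and -0.22.

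The 2 enzymes were also set against the steroid steps that both cortical zones share. Of the 8 shared genes, 1 was called higher from P1 to 2 weeks and 0 lower, against 5.89% and 10.5% of all genes tested. Their median log2 difference was 0.43 against 0.00 over all genes tested. The called gene was Hsd3b1, which rose by 1.28 ± 0.32 (limma adjusted p = 0.0398). Star, which brings cholesterol into the mitochondrion, differed by 1.33 ± 0.37 (limma adjusted p = 0.0572), and Cyp11a1, which makes pregnenolone from it, by 0.26 ± 0.35 (0.647). Set against the mean log2 level of the 8 genes in the same library, Cyp11b2 was higher by 2.22 in the 2-week male than in the P1 male, but differed by -0.16 between the females. Hsd3b6 was higher by 3.31 in males and by 2.27 in females, and so moved the same way in both sexes by either scale. For Cacna1h the values were 1.10 and -0.64, and for Dab2 0.54 and -1.01, male first. The P1 female, on which the second value of each pair rests, had the lowest mean of the shared genes, 13.94 on the log2 scale against 14.72 to 15.66 in the other 6 libraries. From P1 to 12 weeks 4 of the 8 were called higher, namely Star (2.43), Fdx1 (1.38), Fdxr (0.86) and Hsd3b1 (1.91), against 17.6% of all genes tested. From 2 to 12 weeks 0 of 8 were called, against 5.4% of all genes tested called higher and 9.89% lower.

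Among 15 genes for the stimuli and the membrane potential of zona glomerulosa cells, 5 were called higher from P1 to 2 weeks and 0 lower. Over all genes tested, 5.89% were called higher and 10.5% lower. The median log2 difference of the 15 was 0.68, against 0.00 over all genes tested. Agtr1b, one of the 2 mouse type 1 angiotensin II receptors, was 75.3 and 161.2 normalized counts in the P1 male and female and 596.0 and 518.8 at 2 weeks, and rose by 2.32 ± 0.32 (limma adjusted p = 0.00693). Agtr1a, the other receptor, differed by 0.52 ± 0.18 (0.102). In RPKM over merged exons Agtr1a was the more abundant, at 28.3 to 53 against 1.82 to 14.8 for Agtr1b. Kcnk9, the potassium leak channel TASK-3, rose by 1.41 (limma adjusted p = 0.0173), and Kcnk3, its relative TASK-1, differed by 0.58 (0.0976). Atp2b3, a plasma membrane calcium pump, rose by 1.54 (0.00932 by the same test).

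The nuclear receptors Nr4a1 and Nr4a2, which angiotensin II induces and which bind the promoter of the human aldosterone synthase gene, had the largest rises of the 15. Nr4a1 was 337.9 and 984.6 normalized counts in the P1 male and female and 9913.3 and 6959.9 at 2 weeks, a rise of 3.85 (limma adjusted p = 0.0144). Nr4a2 was 67.9 and 236.2 and then 1678.6 and 1657.7, a rise of 3.71 (0.00749 by the same test). At 12 weeks the males and females were far apart, with Nr4a1 at 1174.4 and 8493.2 and Nr4a2 at 501.9 and 2717.6. Both are also immediate early genes, which many stimuli induce in many cell types. From P1 to 12 weeks 8 of the 15 genes were called higher and 0 lower, adding Kcnk3 (0.97), Clcn2 (1.46) and Camk1 (0.69) to the 5. Over all genes tested, 17.6% were called higher and 23.5% lower in that comparison. From 2 to 12 weeks 0 of 15 were called, where 5.4% of all genes tested were called higher and 9.89% lower.

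Of 8 genes of zona glomerulosa identity, 2 were called higher and 1 lower from P1 to 2 weeks, against 5.89% and 10.5% of all genes tested. Vsnl1, a calcium-binding protein of these cells, rose by 1.71 (limma adjusted p = 0.0247). Fgfr2, a growth factor receptor, rose by 0.75 (0.0389). Nov, the older symbol of Ccn3, a secreted matrix protein, fell by 3.68 (0.00214), from 919.7 and 609.3 normalized counts in the P1 male and female to 49.8 and 66.2. The signalling genes Wnt4 (0.68, limma adjusted p = 0.0736), Lef1 (0.25, 0.518) and Axin2 (0.37, 0.443) did not pass, nor did Shh (0.81, 0.14), which subcapsular cortical cells make. From 2 to 12 weeks 0 of 8 were called, against 5.4% of all genes tested called higher and 9.89% lower. From P1 to 12 weeks Fgfr2 was called higher (0.95) and Nov lower (-4.65), against 17.6% and 23.5% of all genes tested.

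**Figure D4:**
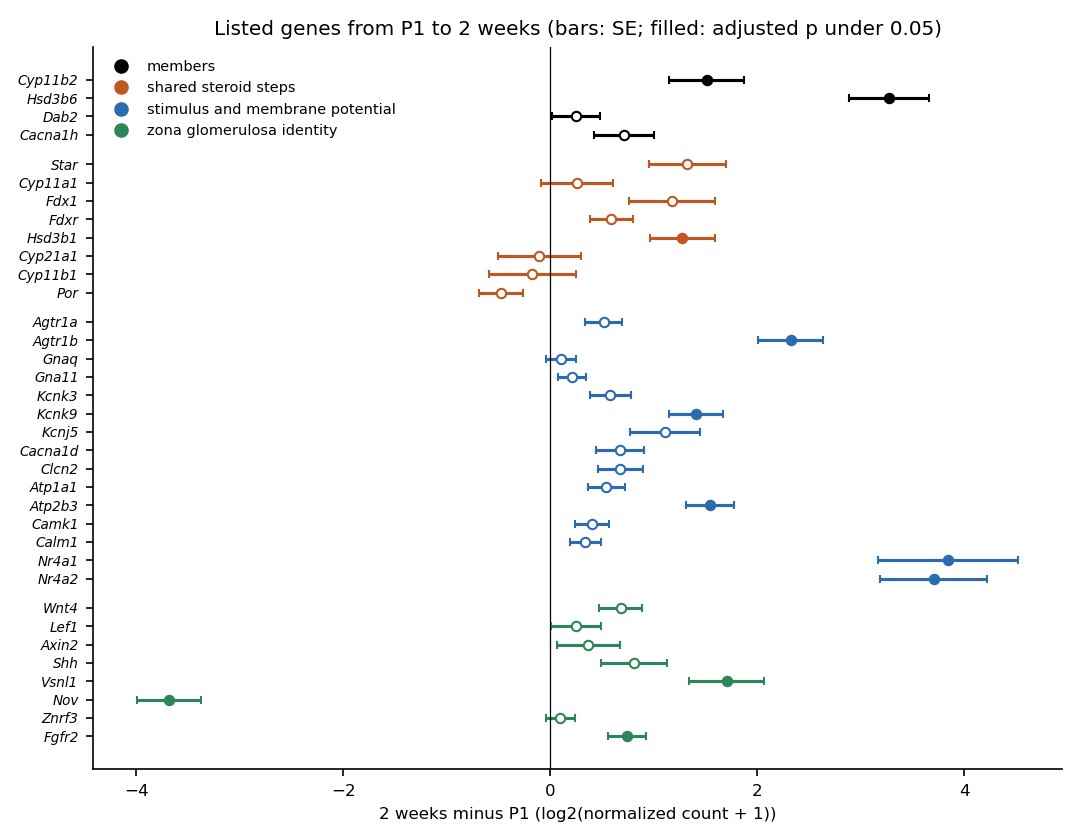
Difference from P1 to 2 weeks (x axis, log2(normalized count + 1), SE bars) for the 4 genes and 3 lists, namely shared steroid steps, stimulus and membrane potential, and zona glomerulosa identity, filled where the limma adjusted p was under 0.05. The called genes other than Nov lie to the right of 0, with Hsd3b6 (3.28), Nr4a1 (3.85) and Nr4a2 (3.71) farthest and Nov at -3.68.

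Cacna1h was compared with the other 9 pore subunits of voltage-gated calcium channels, of which 8 were tested. From P1 to 2 weeks 1 was called higher and 3 lower, against 5.89% and 10.5% of all genes tested. Cacna1c, the L-type channel Cav1.2 of muscle and many other cells, rose by 1.10 (limma adjusted p = 0.0206). Cacna1e fell by 1.13 (0.0403). Cacna1g, the T-type channel Cav3.1, fell by 2.99 (0.00444), and Cacna1s, the channel of skeletal muscle, fell by 4.32 (0.0276). Cacna1g was 288.0 and 366.5 normalized counts at P1 and 45.4 and 35.3 at 2 weeks, while Cacna1h did not pass the test over the same interval. The skeletal muscle genes moved with Cacna1s, 6 of 6 called lower over this interval. In RPKM over merged exons the median level over libraries was 8.03 for Cacna1c, 7.56 for Cacna1h, 3.57 for Cacna1d and 0.239 for Cacna1g. Cacna1d, the L-type channel Cav1.3 of zona glomerulosa cells, differed by 0.68 (0.102 by the same test).

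Of the other 6 Hsd3b genes, 3 were abundant enough to test. Hsd3b1 was called higher, as given above, and Hsd3b3 and Hsd3b7 were not called from P1 to 2 weeks. Hsd3b3, an isoform of kidney and liver, was 78.6 and 141.3 normalized counts at P1, 25.8 and 44.1 at 2 weeks, and 2.8 and 0 at 12 weeks. It fell by 4.16 from 2 to 12 weeks (limma adjusted p = 0.0153), over which the summed liver genes went from 12220.8 and 31609.3 to 392.9 and 397.1. Hsd3b2, Hsd3b4 and Hsd3b5 each reached 12.1 normalized counts at most in any library.

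Among the 9 adaptors and receptors of the Dab2 pathway, 2 were called lower from P1 to 2 weeks, against 10.5% of all genes tested. Lrp2, or megalin, the partner of Dab2 in the kidney tubule, fell by 5.96 (limma adjusted p = 0.00183). It was 6373.5 and 1927.3 normalized counts in the P1 male and female and 56.9 and 53.8 at 2 weeks. The summed kidney genes went from 4075.8 and 928.3 to 32.9 and 46.8, and 7 of 7 were called lower. The male was above the female in both at P1, but only in Lrp2 at 2 weeks. Dab1, the neuronal relative of Dab2, fell by 2.47 (0.0355). The adaptor Numb (0.02, limma adjusted p = 0.953) and the receptor Lrp1 (0.06, 0.886) did not pass.

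Over the 4 genes and these lists, 18 genes were called from P1 to 2 weeks. Of all genes tested, 5.89% were called higher and 10.5% lower over that interval, and 17.6% and 23.5% from P1 to 12 weeks. All 18 calls from P1 to 2 weeks had the same direction in each of 14 alternatives. The alternatives reuse the same libraries, so this gives no independent support. Of these calls 0 held without the P1 male, 1 without the P1 female (Lrp2), 3 without the 2-week male (Nr4a2, Nov and Lrp2) and 10 without the 2-week female. Of the 23 genes called from P1 to 12 weeks, 12 held without the P1 male and 13 without the P1 female, in the same direction. From 2 to 12 weeks Cacna1e and Hsd3b3 were called, and 0 of these calls held without any 1 of the P1 or 2-week libraries.

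Across the 3 postnatal ages no sex difference was called in the 4 genes. The male minus female difference was -0.23 ± 0.30 for Cyp11b2, 0.59 ± 0.31 for Hsd3b6, -0.36 ± 0.24 for Cacna1h and -0.53 ± 0.19 for Dab2, with a limma adjusted p of 0.999 for each. Dab2 had an unadjusted limma p of 0.0304. Across all genes tested 0.00598% were called, 1 gene in all, with 521 at an unadjusted p under 0.05. The 1 called gene was lower in the male, so no Y-linked gene was called. A large sex difference can therefore go uncalled in this fit, and the lack of a call does not show that the sexes were alike. The edgeR quasi-likelihood test on whole reads called 0, with 667 at an unadjusted p under 0.05. Without the P1 female the differences were 0.26 for Cyp11b2, 0.90 for Hsd3b6, -0.26 for Cacna1h and -0.43 for Dab2, each with a limma adjusted p of 0.951. In the other lists, which span steroid steps, stimuli, identity, channels and adaptors, 0 genes were called.

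Within each age the sexes are 2 single pools, so their ratios carry counting intervals but no test between mice. At P1 the male had less Cyp11b2 than the female, at a ratio of 0.428 (95% interval 0.395 to 0.463), and less Cacna1h (0.676, 0.622 to 0.734) and Dab2 (0.601, 0.584 to 0.618). Hsd3b6 did not differ beyond counting error, at 0.97 (0.749 to 1.26). Of all genes tested 3.03% were at least 2-fold lower in the P1 male and 3.75% at least 2-fold higher. Of the 4, Cyp11b2 alone passed 2-fold. At the same age 7 of the 8 shared steroid genes were higher in the male, with a median log2 difference of 0.87, so Cyp11b2 and the shared genes went opposite ways.

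At 2 weeks the ratios lay between 1.01 and 1.29, and only that of Dab2 did not go beyond counting error. They were 1.27 (1.21 to 1.32) for Cyp11b2, 1.14 (1.06 to 1.24) for Hsd3b6, 1.29 (1.21 to 1.37) for Cacna1h and 1.01 (0.98 to 1.03) for Dab2. At that age 0.568% of genes had at least 2-fold more in the male and 3.67% at least 2-fold less, with 0 of the 4 genes among them. The X-zone, which borders the medulla in mice, had its 2 marker genes at a sum of 5406.8 in the male and 27449.6 in the female.

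At 12 weeks the 4 genes parted. Hsd3b6 was higher in the male at a ratio of 3.06 (2.75 to 3.4) and Cyp11b2 at 1.14 (1.07 to 1.21), while Dab2 (0.552, 0.532 to 0.573) and Cacna1h (0.538, 0.494 to 0.586) were lower. In this pair 4.84% of all genes tested had at least 2-fold more in the male and 3.98% at least 2-fold less, and Hsd3b6 was the only 1 of the 4 past 2-fold. The close copies of the enzymes were lower in the male, Hsd3b1 at a ratio of 0.636 (0.632 to 0.64) and Cyp11b1 at 0.566 (0.561 to 0.572). Kcnk9 (1.83, 1.68 to 1.98), Shh (1.66, 1.41 to 1.97) and Axin2 (1.58, 1.42 to 1.77) were higher in the male. Clcn2 (0.502, 0.45 to 0.558), Agtr1a (0.663, 0.618 to 0.712) and Wnt4 (0.613, 0.564 to 0.666) were lower. Kcnk9, Clcn2 and Agtr1a are of the stimulus and membrane potential list, which had 8 genes higher and 7 lower, with a median of 0.006 on the log2 scale. The zona glomerulosa identity list, which holds Shh, Axin2 and Wnt4, had 5 genes higher and 3 lower, with a median of 0.21.

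**Figure D5:**
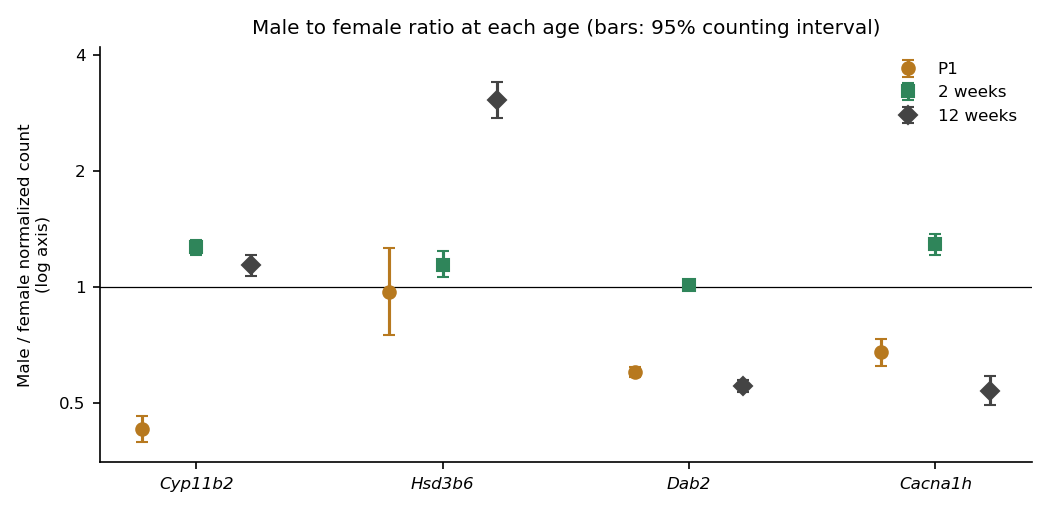
Ratio of male to female normalized counts (y axis, log scale) at P1, 2 weeks and 12 weeks for the 4 genes, with 95% counting intervals, 1 pool of glands per sex and age. Hsd3b6 at 12 weeks (3.06) and Cyp11b2 at P1 (0.428) lie farthest from 1, and Cacna1h lies below 1 at P1, above it at 2 weeks and below it at 12 weeks.

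Around birth the 4 genes were compared between E18.5 and each P1 pool, again 1 library against 1. In the P1 male all 4 were lower than at E18.5. The ratio was 0.352 (0.327 to 0.379) for Cyp11b2, 0.775 (0.616 to 0.973) for Hsd3b6, 0.637 (0.59 to 0.687) for Cacna1h and 0.84 (0.816 to 0.865) for Dab2. Of all genes tested 3.5% were at least 2-fold lower in this pair and 4.9% at least 2-fold higher, and Cyp11b2 was the only member past 2-fold. In the P1 female Cyp11b2 was at 0.823 (0.775 to 0.875) and Dab2 at 1.4 (1.36 to 1.44) of the E18.5 level. Hsd3b6 (0.799, 0.622 to 1.02) and Cacna1h (0.942, 0.874 to 1.01) did not differ from E18.5 beyond counting error. In that pair 6.12% of genes were at least 2-fold lower and 7.04% at least 2-fold higher, and 0 of the 4 were. All 8 shared steroid genes were lower at P1 than at E18.5 in both pools, with medians of -0.48 and -1.21 in male and female. The E18.5 pool is of undetermined sex, so its sex and its age cannot be told apart in either pair.

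The 4 genes did not follow 1 common pattern over the libraries. Pearson r over the 7 libraries, on the log2 scale, was 0.753 between Dab2 and Cacna1h, 0.748 between Cyp11b2 and Cacna1h, and 0.722 between Cyp11b2 and Hsd3b6. It was 0.402 between Cyp11b2 and Dab2, 0.398 between Hsd3b6 and Cacna1h and -0.08 between Hsd3b6 and Dab2. The libraries share their sex, age and depth across all genes, so these values are descriptions. Among 6500 genes that averaged 50 or more normalized counts and had at least a 2-fold range, those most like Cyp11b2 were Ift80 (r = 0.955), Cacna1d (0.954), Zfp367 (0.953), Cdkl2 (0.952) and Caln1 (0.942). Cacna1d was 585.1 normalized counts in the P1 male and 1249.8 in the 2-week male, the lowest and highest libraries of Cyp11b2 as well. The genes most like each of the 4 were chosen over these same libraries, so shared highest and lowest libraries follow largely from the choice. Most like Hsd3b6 were Stx7 (0.992), Slc2a4 (0.99), which encodes the insulin-responsive glucose transporter of fat and muscle, Mtfp1 (0.984), Ppp2r5a (0.983) and Ccdc30 (0.983). The adipocyte genes rose over the interval in which Hsd3b6 rose, 5 of 5 called from P1 to 2 weeks, and their part in this likeness was not tested.

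Most like Dab2 were Sprn (r = 0.974), Cdh2 (0.946), the cell adhesion protein N-cadherin, Cdk18 (0.938), Cspg5 (0.933) and Cntfr (0.921). Each of these 5 was lower in the 12-week male than in the 12-week female, as was Dab2, which the choice by likeness favours. Most like Cacna1h were Oca2 (0.943), Cisd3 (0.933), Wasf3 (0.932), Nr4a1 (0.931) and Ppm1e (0.919). Nr4a1, the only listed gene among them, ranged far more widely than Cacna1h, from 337.9 to 9913.3 normalized counts against 904.2 to 2052.2, with the P1 male lowest and the 2-week male highest for both.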

How the data were processed

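RNA was measured by RNA sequencing in 7 libraries, each from 1 pool of adrenal glands. The authors deposited 1 table of normalized counts (a signal scaled per library). The submitters' processing notes list CASAVA 1.8.2, HISAT2 2.1.0, HTSeq 0.9.1, DESeq2 2.11.40.6 and mm10, with no role or setting. How strand and shared reads were counted is not given in the sources used here. Values were whole multiples of 1 step per library (100.0% within 0.01 reads, largest deviation 0.00026), which gave whole reads.

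The 16720 genes with a mean normalized count of 10 or more were tested on log2(value + 1) with limma 3.58.1 (lmFit, eBayes with a trend) in R 4.3.3, on 6 postnatal libraries with age and sex, two-sided, with Benjamini-Hochberg adjustment at 0.05. The fit had 2 residual degrees of freedom and a prior of 4.55. edgeR 4.0.16 on whole reads, other pseudocounts, filters and scalings, and leaving out each library were alternatives. Single libraries were compared by ratio with exact 95% counting intervals, without a test. Coordinates, exon lengths and sequences came from GENCODE M21 (GRCm38). Scripts were tested on simulated data.

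The genes, lists and tests were chosen with earlier results of these data known. Genes named are the 4, list genes that passed or stood first in their list, and per gene the 5 most alike by Pearson r. List genes named for the 12-week pair (Kcnk9, Shh, Axin2, Clcn2, Agtr1a and Wnt4) and Hsd3b3 were chosen after their values were seen. Some genes of the adaptor and receptor list are not reported here.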

Additional observations from a re-analysis of the deposited data

Results flagged for a closer look

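The male to female ratio of Cyp11b2 lay on opposite sides of 1 at different ages, beyond counting error. The P1 male had 0.428 times the female level, while the ratio was 1.27 for the 2-week pair and 1.14 for the 12-week pair. Cacna1h did so too, with ratios of 0.676 at P1, 1.29 at 2 weeks and 0.538 at 12 weeks. Each ratio compares 2 single pools, so the difference between ages was not tested. The P1 ratios rest on the library labelled P1 female, which held Y-linked reads at a median of 21.0% of the male level, and the part of that in the ratios was not tested.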

How the results depend on the processing

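With no filter on low values, 0 genes were called from P1 to 2 weeks and from 2 to 12 weeks by limma (6431 and 6036 at an unadjusted p under 0.05), and 0 by sex (783). Without a variance trend the counts were 1672, 1661 and 0 (638 at an unadjusted p under 0.05 by sex), against 2737, 2557 and 1. The edgeR test called 2795 and 2396 between those ages, 6754 from P1 to 12 weeks (6881 in limma) and 0 by sex. Leaving out 1 library each gave 2 to 4461 calls from P1 to 2 weeks, 421 to 3035 from 2 to 12 weeks, 3207 to 6271 from P1 to 12 weeks and 0 to 51 by sex, and where it left 1 pool at an age, that pool is assumed to vary like the others. With no filter the limma adjusted p from P1 to 2 weeks was 0.199 for Cyp11b2 and 0.094 for Hsd3b6, and without a trend it was 0.11 for Cyp11b2. Cyp11b2 passed in 8 of 14 alternatives. Scaling to equal totals moved the median of all genes from -0.03 to -0.20 from 2 to 12 weeks and from -0.03 to -0.15 from P1 to 12 weeks. The split of calls, higher to lower, went from 903 and 1654 to 647 and 2514, or 1165 and 1467 with upper-quartile scaling. From P1 to 12 weeks it went from 2944 and 3937 to 2365 and 4544, or 3689 and 3512. The calls of Cyp11b2 and Hsd3b6 held under both scalings. Genes at least 2-fold apart, with a mean of at least 50, no filter, and a 4-fold limit, in that order, numbered 624, 3933 and 280 for P1 male against E18.5 (1405 as reported), 1204, 5793 and 400 for P1 female against E18.5 (2200), 473, 4550 and 209 between the sexes at P1 (1134), 325, 2331 and 185 at 2 weeks (709), and 814, 5215 and 276 at 12 weeks (1476). The cause of these shifts was not tested. No paired analysis was possible because each group was 1 library and the labels carry no replicate numbers. Depth limits Hsd3b6 most, with 107 reads in the P1 female.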
